A study of Sus scrofa with 8 samples.

Results

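The MYF5+ progenitors described here are cells of the pig somite and myotome in which MYF5, the earliest of the myogenic regulatory factors, was counted together with PAX7 or MSC while MYOD1 and MYOG were not. A barcode was a member if it held at least 200 genes, at most 30000 UMIs and at most 10% of its UMIs on the 13 mitochondrial genes, and, in raw UMIs, at least 1 of MYF5, at least 1 of PAX7 or MSC, 0 of MYOD1 and MYOG and at most 1 of MYH3. A UMI stands for 1 captured RNA molecule. Members were thus selected on the measured UMIs of these 6 genes, and the levels of those genes are given below as a description. The rule took 2247 of the 82394 cells that passed the limits on quality, or 2.73%.

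Single cells were sequenced on the 10x Genomics platform in 8 libraries, 1 for each of 4 stages in Tibetan pigs (ZZ) and in Duroc by Tibetan crosses (DZ). The libraries of embryonic days 16, 18 and 21 (E16, E18, E21) were made from somites and those of E28 from the myotome, so the tissue cannot be told apart from the stage at E28. Each library pooled 5 embryos of 1 sow, and every stage of every breed was measured once. The share test and the test of E28 against E21 therefore have no repeated sow of the same stage and breed. Their p-values measure a spread between libraries in which sow and breed cannot be told apart. In the share test, stage is part of that spread as well. Tests that compare cells of the same library, or the breeds within a stage, measure how far that difference varied between libraries or stages. The libraries held 50110370 to 71091640 UMIs, and 6297 to 12173 cells of each were kept. E16-ZZ stood apart with 39.2% of its barcodes over the mitochondrial limit, against 1.05% to 9.15% in the other 7. Pairs of libraries shared 17 to 48 cell barcodes.

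Skeletal muscle of the trunk arises from the dermomyotome, the epithelial upper sheet of the somite, whose cells depend on the transcription factor PAX3. Cells that enter the muscle lineage switch on MYF5, then MYOD1, which commits them as myoblasts, and then MYOG, which starts terminal differentiation. A PAX7-expressing fraction stays undifferentiated within the forming muscle, where NOTCH signalling restrains MYOD1 activity, and later provides the satellite cells of the adult. MSC (musculin, also called MyoR) is a basic helix-loop-helix repressor that can oppose MYOD1.

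The gate was checked against the same 6 genes in endothelial cells, which should lack them. Among 1350 cells with both PECAM1 and CDH5, 0.519% held a UMI of MYF5, 0.815% of PAX7, 1.04% of MSC, 0.370% of MYOD1, 0.148% of MYOG and 1.48% of MYH3. In E28-DZ, 3 of 62 endothelial cells held MYF5 (4.84%), 5 MSC (8.06%) and 8 MYH3 (12.9%), against 20.1%, 18.2% and 10.5% of all cells there. PAX7 was found in 2 of 40 endothelial cells of E21-DZ (5.0%), against 7.69% of all cells, and MYOD1 in 2 of 68 of E28-ZZ (2.94%), against 9.504%. Median depth by library was 8587 to 13951 UMIs in endothelial cells and 4410 to 9531 UMIs in the MYF5+ progenitors of E18 to E28. Among the top doublet scores of each library were 5.08% to 15.0% of the members of E18 to E28, and 8.66% to 9.87% of all cells there. Of 6054 cells with MYF5, 3545 also held PAX7 or MSC, 2348 of those held no MYOD1, and 2257 no MYOG either. Just inside the gate, 565 members had a single MYF5 UMI and 1682 had 2 or more, and 543 rested on a single UMI of PAX7 or MSC. Just outside it lay 1552 cells with MYF5 but neither PAX7 nor MSC, 3064 with PAX7 or MSC but no MYF5, and 485 and 79 cells kept out by a single UMI of MYOD1 or MYOG. The MYH3 limit, which concerns the embryonic myosin heavy chain, let in 92 members with 1 UMI in E28-DZ and 0 to 24 in each other library, and kept out 7 cells with 2.

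A UMI count of 0 does not show that a cell lacks the mRNA, so "before MYOD1" holds only as far as the depth allows. Of the cells with MYF5 and PAX7 or MSC, all 59 in each E18 library were without MYOD1 (exact 95% interval from 93.9%). MYOD1 was rare in all cells of E18, at 0.0582% in ZZ and 0.0677% in DZ, below MYOG at 0.262% and 0.319%. A lack of MYOD1 at E18 therefore does not by itself place a cell before commitment. At E21 the share without MYOD1 was 84.2% in ZZ and 86.1% in DZ, and at E28 it was 60.0% in ZZ and 59.5% in DZ. With every cell thinned to 2000 UMIs before the rule was applied, these 4 shares were 94.7%, 95.3%, 82.0% and 79.9%. The share without MYOD1 was thus lower in both E28 libraries than in both E21 libraries at either depth, and its level moved with depth in all 4. Intervals here and below cover counting error only.

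MYF5+ progenitors were all but missing at E16 and became more frequent with stage. No member was found among 6297 cells of E16-ZZ, which allows a share of up to 0.0476% by the limit of 3 counts (exact 95% upper limit 0.0586%), and 3 were found in E16-DZ, or 0.0283%. At E18 there were 59 in each library, 0.573% of the cells in ZZ and 0.570% in DZ. At E21 there were 260 in ZZ and 318 in DZ, or 2.24% and 3.12%. At E28 there were 518 in ZZ and 1030 in DZ, or 4.77% and 8.46%, and these 1548 cells made up 68.9% of all members. The 4 late libraries (E21 and E28) did not overlap with the 4 early ones (E16 and E18), at 4.65% ± 2.75 against 0.293% ± 0.322 (mean ± SD). The difference of 4.35 percentage points had p = 0.0286 in an exact two-sided permutation test, the smallest that the 70 splits allow. Without the E28 libraries it was 2.39 percentage points (exact permutation p = 0.133, again the smallest that this design allows). The share is what the rule counts on its own genes, so these p-values say nothing further about those genes. Cells with a MYF5 UMI, whatever else they held, were 0.588% and 0.330% at E16 and 3.13% and 3.11% at E18. At E21 they were 7.05% and 7.76%, and at E28 11.8% and 20.1% (ZZ then DZ). PAX7 or MSC was found in 59 of the 322 in each E18 library and in 1801 of the 2449 in E28-DZ. The part of that step in the rise was not tested.

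Thinning lowered the share of members in each library that had any. With every cell at 2000 UMIs E18 had shares of 0.125% in ZZ and 0.0969% in DZ, E21 had 0.809% and 0.983%, and E28 had 3.02% and 8.44%. Cells with fewer UMIs, 216 to 1468 per library, were left out. The order of the stages was unchanged.

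**Figure D1:**
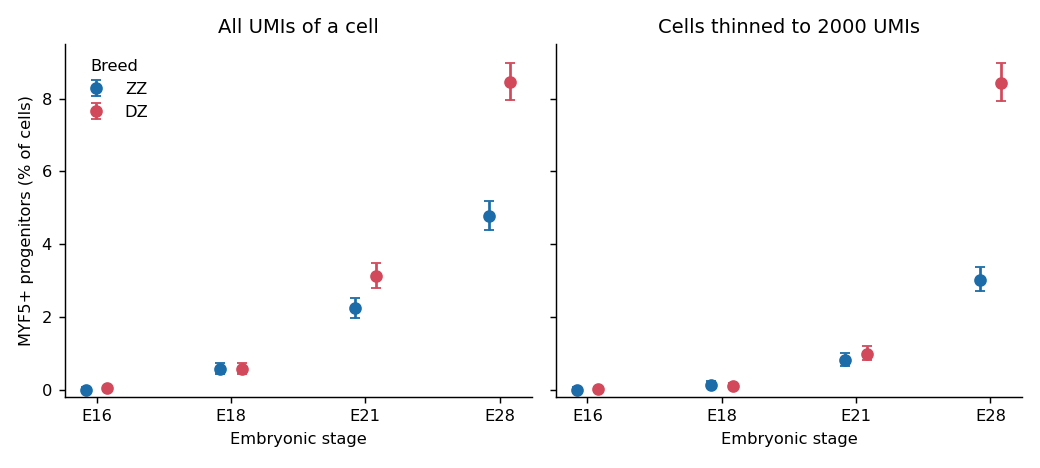
Share of MYF5+ progenitors among the cells of each library, in percent, by embryonic stage and breed, with all UMIs (left) and with every cell thinned to 2000 UMIs (right). Points are single libraries and bars are exact 95% binomial intervals. E16-ZZ had no member, and E28-DZ was highest in both panels (8.46% with all UMIs).

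The genes of the rule changed their balance between E18 and E28. These values describe what chose the cells and were not tested. At E18, 56 of the 59 members of each library held PAX7 without MSC, so 94.9% entered through PAX7 alone. This fell to 60.4% and 61.6% at E21 and to 15.4% and 2.52% at E28 (ZZ and DZ). Members with any MSC made up 5.08% in both E18 libraries, 39.6% and 38.4% at E21, and 84.6% and 97.5% at E28. The stages did not overlap in either share. Most members of E28 held both genes, 53.3% in ZZ and 58.9% in DZ, whereas no member of E18 did.

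Counts summed over the members of a library were scaled to CPM (UMIs of a gene per 1e6 UMIs of the sum), which cannot tell more expressing cells from more RNA per cell. In ZZ and DZ, MSC stood at 5.28 and 5.69 CPM at E18, then 132 and 99.8, and reached 485 and 1325 CPM in the E28 libraries. MYF5 began at 220 and 149.3 CPM, had 481 and 407 in the E21 libraries and ended at 595 and 956 CPM. PAX7 moved least, from 141 CPM in both E18 libraries through 190 and 183 CPM to 210 and 212 CPM. All 3 genes were thus higher in the E28 members than in those of E18, MSC by far the most and with a wide gap between the breeds at E28.

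PAX3, which the rule did not use, fell in CPM between E18 and E28. In ZZ and DZ it began at 162 and 169 CPM, had 90.3 and 77.7 CPM in the E21 libraries and ended at 57.7 and 48.5 CPM, lower at each later stage in both breeds. A PAX3 UMI was found in 72.9% and 67.8% of the E18 members, 36.2% and 32.7% of those of E21, and 23.6% and 17.5% of those of E28. With members thinned to 2000 UMIs these shares were 25.4%, 20.3%, 18.4%, 12.6%, 10.1% and 8.79%, in the same order. The gap between stages was smaller at equal depth, the E18 members having been the deepest (median 8981 and 9531 UMIs, against 4917 and 4410 for E28).

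**Figure D2:**
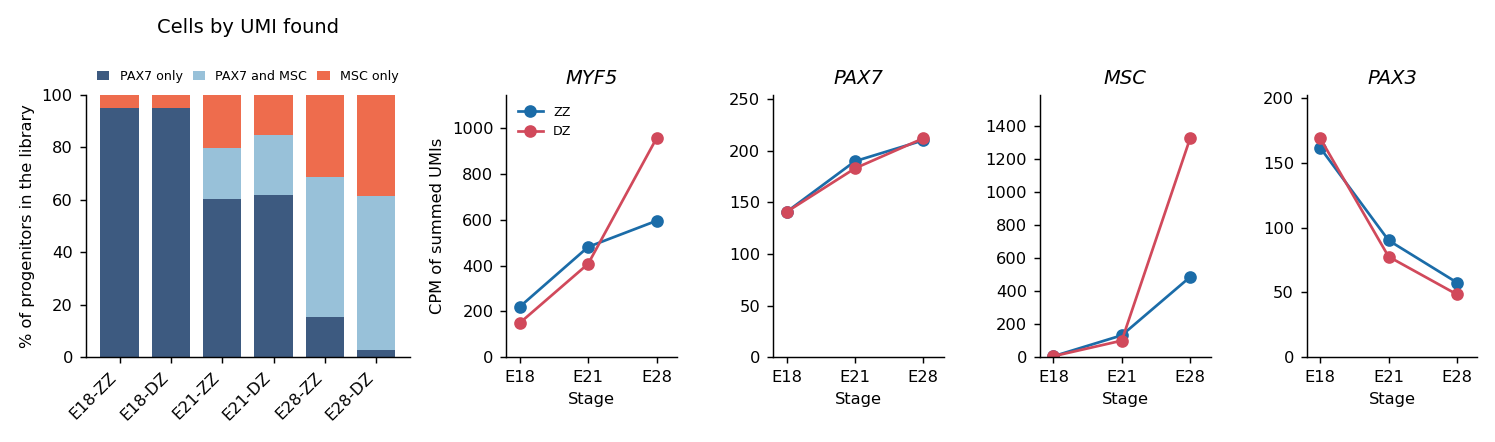
Left, share of MYF5+ progenitors of each library, in percent, that held a UMI of PAX7 only, of both PAX7 and MSC, or of MSC only. Right, CPM of the summed UMIs of MYF5, PAX7, MSC and PAX3 in the progenitors of E18, E21 and E28, with 1 point per library and a line per breed. PAX7-only cells went from 94.9% at E18 to 2.52% in E28-DZ, while MSC reached 1325 CPM and PAX3 fell to 48.5 CPM there.

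Members were next compared with cells with MYOD1 or MYOG and at most 1 MYH3 UMI, called myoblasts below. Of these there were 3191 in all, and 5 libraries held at least 20 cells of both kinds (E18 of DZ, and both breeds of E21 and of E28). That myoblasts are a later step of the lineage than members was not tested. In E18-DZ they were 31 cells, and MYOG was found in 0.319% of all cells there and MYOD1 in 0.0677%. UMIs were summed per library and kind of cell and tested with edgeR's quasi-likelihood test, with the library as a block and Benjamini-Hochberg adjustment over all genes tested. Both gates are cut on counts in the same cells, so genes that vary together with the gating genes are tied to the choice of cells. The 6 genes of the rule were left out. Of 9416 genes, 14.2% passed at an adjusted p under 0.05, 5.8% (546) higher and 8.43% (794) lower in the MYF5+ progenitors. Without E28-ZZ the number was 887 and without E28-DZ it was 756, against 1340 with all 5 libraries.

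Markers of other cells also moved in this comparison. The neural genes NES, TUBB3 and DCX, the sclerotome gene PAX1, the tendon gene MKX and OGN were lower in members, and DCN and HBB were higher. The erythroid list summed to 1549, 129, 2753, 629 and 464 CPM in members of E18 (DZ), E21 (ZZ, DZ) and E28 (ZZ, DZ) and to 189, 3890, 4654, 1217 and 777 CPM in myoblasts. The neuronal list was 51.2, 1144, 613, 289 and 227 CPM in members and 51.2, 1054, 404, 218 and 295 CPM in myoblasts. With cells bearing a UMI of COL2A1, PECAM1, EPCAM, SOX10 or LUM left out, 1318 genes passed in 4 libraries. The part of the other markers was not tested.

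Genes of the contractile apparatus were low in the MYF5+ progenitors. Of 21 tested, 18 were lower and none was higher (85.7% called, against 14.2% of all genes). The median log2 fold change was -1.31 against 0.02 over all genes. ACTC1, the cardiac alpha-actin that is the main sarcomeric actin of embryonic muscle, was 172, 646, 681, 599 and 2229 CPM in the members of E18 (DZ), E21 (ZZ, DZ) and E28 (ZZ, DZ), and 1417, 5450, 4385, 4234 and 7097 CPM in the myoblasts of the same libraries. The members were lower in 5 of 5 libraries (log2 fold change -2.71 ± 0.14 SE, adjusted p = 9.14e-10). ACTN2, an alpha-actinin of the Z-disc, was 4.07 to 21.7 CPM in members and 19.7 to 287 CPM in myoblasts (log2 fold change -4.16 ± 0.15 SE, adjusted p = 2.26e-11). MYL1 and TNNI1 were lower by -3.13 ± 0.17 and -2.37 ± 0.22 on the log2 scale.

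Genes of fusion, synapse and excitation moved the same way, 9 of 12 lower and none higher (median log2 fold change -1.05). This is 75% called, against 14.2% of all genes. MYMK encodes myomaker, the membrane protein that myoblasts need to fuse. It was 7.11, 43.0, 36.6, 32.0 and 61.6 CPM in members and 315, 515, 354, 383 and 561 CPM in myoblasts, in the library order above, and no member value reached any myoblast value (log2 fold change -3.53 ± 0.11 SE, adjusted p = 2.97e-12). CHRNA1, the alpha subunit of the muscle acetylcholine receptor, and ATP2A1, the calcium pump of the sarcoplasmic reticulum, were lower by -3.01 ± 0.12 and -3.65 ± 0.23 on the log2 scale. Summed over its genes, this list was 152 to 332 CPM in members and 959 to 1384 CPM in myoblasts of the 5 libraries, and the contractile list was 2164 to 5890 CPM and 8086 to 12295 CPM. Contractile transcripts were thus lower in members than in myoblasts. In the PAX3+ cells described below, those of E18 to E28, the contractile list was 1575 CPM (E18-DZ) to 3848 CPM (E28-DZ). A sum of this kind is therefore not particular to members.

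Of 13 D cyclins, CDK inhibitors and related genes, 2 were higher and 5 lower in members. The other 6 did not pass (53.8% called, against 14.2% of all genes). CDKN1C (p57) was 118, 317, 240, 377 and 447 CPM in members and 925, 1458, 1198, 1439 and 1431 CPM in myoblasts (log2 fold change -2.22 ± 0.11 SE, adjusted p = 2.8e-10). CDKN1A (p21) was at 1.04 to 4.07 CPM in members and 15.8 to 66.9 CPM in myoblasts (log2 fold change -3.40 ± 0.21 SE, adjusted p = 7.2e-09). Neither gene overlapped between members and myoblasts. The D cyclins CCND1, CCND2 and CCND3 were also lower in members, by -0.46 ± 0.11, -0.54 ± 0.06 and -0.87 ± 0.09 on the log2 scale, while CDK6, their kinase partner, was higher by 0.62 ± 0.11.

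Of 39 S phase genes tested, which act in DNA replication, 19 were higher in the MYF5+ progenitors, 1 was lower and 19 did not pass (median log2 fold change 0.30), and DESeq2 called 10, all higher. Without E21-ZZ 11 passed and without E28-DZ 10. PCNA, the sliding clamp of DNA polymerase, was 255, 259, 248, 301 and 244 CPM in members and 126, 160, 174, 235 and 191 CPM in myoblasts, higher in 5 of 5 libraries (log2 fold change 0.41 ± 0.07 SE, adjusted p = 0.000922). MCM5, MCM7 and UHRF1 were higher by 0.34 ± 0.07, 0.31 ± 0.06 and 0.54 ± 0.08 on the log2 scale. Of 47 genes of G2 and M phase, 4 were higher and 1 was lower, a smaller share than the 14.2% of all genes.

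NOTCH genes moved both ways. Of 15 tested, 8 were higher and 5 lower in the MYF5+ progenitors (median log2 fold change 0.44). This is 86.7% called, against 14.2% of all genes. HEY1, a repressor that NOTCH signalling induces, was 17.1, 70.97, 78.6, 88.9 and 99.6 CPM in members and 7.87, 17.4, 47.6, 36.7 and 33.0 CPM in myoblasts, higher in 5 of 5 libraries (log2 fold change 1.28 ± 0.13 SE, adjusted p = 1.91e-06). The receptor NOTCH3 was 22.8, 66.6, 76.8, 101 and 125 CPM in members and 3.94, 37.4, 33.7, 50.9 and 47.0 CPM in myoblasts (log2 fold change 1.08 ± 0.10 SE, adjusted p = 5.4e-07). In every library both genes were higher in members than in myoblasts.

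Of the other NOTCH genes, the effector HES1 was higher by 0.66 ± 0.16 on the log2 scale. GXYLT2, which adds xylose to NOTCH repeats and was not on the list, was among the 8 largest rises of genes with at least 20 CPM and 1 direction in all libraries (132 against 49.4 CPM on average, log2 fold change 1.33 ± 0.11 SE). HES6, which promotes differentiation, was lower (log2 fold change -0.99 ± 0.10 SE, adjusted p = 2.08e-06), as were the target gene HEYL (-0.64 ± 0.18) and the receptor NOTCH1 (-0.51 ± 0.11). Neither the receptors nor the targets therefore moved as a block.

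Upstream factors of the dermomyotome were higher in the MYF5+ progenitors in 8 of 18 cases and lower in 3 (61.1% called, against 14.2% of all genes). Without E28-DZ 7 passed in all. PAX3 was 169, 90.3, 77.7, 57.7 and 48.5 CPM in members and 35.4, 39.5, 43.1, 29.2 and 18.1 CPM in myoblasts (log2 fold change 1.10 ± 0.12 SE, adjusted p = 4.53e-06). Its level in members was above that in myoblasts in every library. MEOX1, a homeobox factor of the early somite, and DMRT2, which acts upstream of MYF5 in the dermomyotome, were higher by 0.66 ± 0.09 and 0.84 ± 0.15 on the log2 scale. MEF2C, the partner of MYOD1 and MYOG on muscle promoters, and EYA2 were lower by -2.23 ± 0.14 and -1.96 ± 0.15.

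Secreted and surface genes were also among the genes named for their rise, for which 1 direction in all libraries was a condition. NTN5, a netrin, was higher in members in 5 of 5 libraries with 292 CPM in E18-DZ and 23.0 to 66.3 CPM in the other 4 (log2 fold change 1.48 ± 0.15 SE). NTF3 (neurotrophin-3), MATN2 (matrilin-2) and AXL, a receptor tyrosine kinase, rose by 1.17 ± 0.13, 1.15 ± 0.13 and 1.06 ± 0.15 on the log2 scale. Of 17 genes of the basement membrane and matrix, 7 were higher, among them LAMA1, LAMA4, COL4A1 and COL6A1, and HSPG2 (perlecan) was lower. These were 47.1% of the list, against 14.2% of all genes. Among genes linked to satellite cells, 6 of 16 were higher and 4 lower (62.5% called, against 14.2% of all genes), and by DESeq2 2 and 4. VGLL3 was up by 0.64 ± 0.08 and its relative VGLL2 down by -1.79 ± 0.11.

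Of the 15 FGF, 24 BMP and TGF-beta and 17 WNT genes tested against myoblasts, 3, 6 and 5 passed (20%, 25% and 29.4%, against 14.2% of all genes), in both directions in each list and with medians of 0.10, 0.07 and -0.04 on the log2 scale. GREM1, an antagonist of BMP ligands, was higher by 1.13 ± 0.23, and RSPO3, which strengthens WNT signals, by 0.75 ± 0.16. FST (follistatin) was lower by -0.46 ± 0.12. Of 17 HOX genes, 6 were higher, 5 of them in the HOXC cluster, none was lower and 11 did not pass, and the list's median was -0.09.

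Members were also compared with PAX3+ cells with MEOX1, TCF15 or DMRT2, without MYF5, MYOD1 or MYOG and with at most 1 MYH3 UMI. There were 1202 of these. At E28 they held more fibroblast and neuronal RNA than the members (values below), so they are not shown to be an earlier step of the lineage. All 6 libraries of E18 to E28 held at least 20 cells of both kinds. PAX3, MEOX1, TCF15 and DMRT2, which define these cells, were left out of the test along with the genes of the rule. Of 8461 genes, 2.39% passed at an adjusted p under 0.05, 1.15% (97) higher and 1.24% (105) lower in the MYF5+ progenitors (edgeR quasi-likelihood test, library as a block). The number of 202 fell to 62 without E21-ZZ, to 83 without E21-DZ and to 97 without E28-ZZ. It was 393 without both E18 libraries, an alternative chosen after the data were seen.

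Contractile genes differed between MYF5+ progenitors and PAX3+ cells. Here too the gates are cut on counts in the same cells, so genes that vary with the gating genes are tied to the choice. Members may include cells whose MYOD1 was not counted, and their part in these levels was not tested. Of 11 contractile genes tested, 8 were higher and none was lower (72.7% called, against 2.39% of all genes). Their median log2 fold change was 1.16 against 0.0024 over all genes. Without E21-ZZ 3 passed, without E21-DZ 4, and by DESeq2 5. NEB, the giant thin-filament protein nebulin, was 17.6, 44.1, 176, 139, 155.3 and 99.2 CPM in the members of E18, E21 and E28 (ZZ then DZ of each), and 2.17, 9.17, 18.9, 32.7, 33.8 and 30.2 CPM in the PAX3+ cells (log2 fold change 2.50 ± 0.18 SE, adjusted p = 1.8e-06). It was higher in members in 6 of 6 libraries.

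ACTC1 was higher in members in 6 of 6 libraries as well, at 158 to 2229 CPM against 60.3 to 465 CPM (log2 fold change 1.98 ± 0.18 SE, adjusted p = 1.25e-05). TNNT1, slow skeletal troponin T, was 70.4 to 1866 CPM against 17.8 to 897 CPM (1.44 ± 0.11), and MYMK was higher by 2.56 ± 0.29 on the log2 scale. In level, members thus lay between the PAX3+ cells and the myoblasts for ACTC1, NEB, TNNT1 and MYMK, each of which passed both tests in opposite directions. An order of these cells in the lineage was not tested.

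Of 16 FGF genes, 2 were higher than in PAX3+ cells and none was lower. Of 18 genes of migration and adhesion 2 were higher (CDH15 and ITGA6) and 2 lower (VCAM1 and CDH11). This is 12.5% and 22.2% called, against 2.39% of all genes. FGFR4, the FGF receptor of myogenic progenitors, was 0, 1.42, 37.97, 26.6, 80.6 and 141 CPM in members and 1.74, 1.93, 3.98, 7.86, 9.65 and 24.2 CPM in PAX3+ cells (log2 fold change 2.22 ± 0.33 SE, adjusted p = 0.00122). It was higher in members in the 4 libraries of E21 and E28 and not in those of E18. CDH15 (M-cadherin), the adhesion molecule of myogenic cells, was 91.5 to 306 CPM against 39.5 to 120 CPM (1.503 ± 0.18, adjusted p = 0.000168), and ITGA6, a laminin receptor, rose by 1.04 ± 0.21. Of 16 NOTCH genes, 2 were higher than in PAX3+ cells (HEY1 by 1.12 ± 0.23 and NOTCH3 by 0.89 ± 0.22), the ligand JAG1 was lower (-1.19 ± 0.26) and 13 did not pass, against 2.39% of all genes called. DESeq2 called 1 of the 16. Of 14 genes linked to satellite cells, VGLL3 (by 2.62 ± 0.28), HEY1 and IGFBP2 were higher than in PAX3+ cells. PTN and MDK were lower and 9 did not pass (35.7% called, against 2.39% of all genes).

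Of 18 genes of the basement membrane and matrix, 2 were lower than in PAX3+ cells, none was higher and 16 did not pass. On the log2 scale FN1 (fibronectin), on that list, changed by -1.52 ± 0.23, the adhesion receptor VCAM1 by -2.86 ± 0.27 and the mesenchymal homeobox gene PRRX1 by -1.87 ± 0.34. EN1, a homeobox gene of the central dermomyotome, was 0, 0, 39.2, 21.2, 83.0 and 70.0 CPM in members and 2.60, 0.483, 80.5, 68.1, 251 and 193 CPM in PAX3+ cells (log2 fold change -1.43 ± 0.16 SE, adjusted p = 5.54e-05). Of 19 HOX genes tested, 6 were lower, among them HOXA5 (-1.39 ± 0.24), none was higher and 13 did not pass. The list's median log2 fold change was -0.54 against 0.0024 over all genes, and 31.6% of it was called, against 2.39% of all genes. Without E21-DZ or without E28-ZZ 3 passed. BMP4, BMP5 and ID2 were lower, 3 of 18 genes of the BMP and TGF-beta pathway (16.7% called, against 2.39% of all genes).

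Of the 5 fibroblast markers tested, 4 were lower in members (80% called, against 2.39% of all genes), and this moved with the genes above. The list summed to 399, 419, 1072, 1025, 2294 and 1643 CPM in members and to 576, 458, 1784, 1729, 5054 and 4875 CPM in PAX3+ cells, in the order E18-ZZ to E28-DZ. The gap was therefore widest at E28, where only 41 and 38 PAX3+ cells were left. The neuronal list stood at 289 and 227 CPM in E28 members and 1154 and 1595 CPM in E28 PAX3+ cells, and STMN2 was lower in members (-1.42 ± 0.30). NES (nestin), an intermediate filament protein of neural progenitors and also of myogenic cells, was higher in members in 6 of 6 libraries (0.58 ± 0.07). The erythroid list stood at 973, 1549, 129, 2753, 629 and 464 CPM in members and at 1024, 1421, 149.1, 135, 111 and 48.3 CPM in PAX3+ cells, and none of its 3 genes tested passed (edgeR), though all 3 were higher at an unadjusted p under 0.05. DESeq2 called 0 of them. The part of these lists in the genes that differed was not tested. With all cells that held a UMI of the 5 genes above (COL2A1 to LUM) left out, 2 libraries remained and 6 genes passed.

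The counts of cell-cycle genes that passed against PAX3+ cells stand beside a share of 2.39% over all genes and show nothing particular to them. None of 38 S phase genes passed by edgeR or DESeq2, and none had an unadjusted p under 0.05. None of 46 genes of G2 and M phase passed by either tool, and 5 were higher at an unadjusted p under 0.05. Of 10 D cyclins, CDK inhibitors and related genes, MYC was higher (1.09 ± 0.25), 5 were higher at an unadjusted p under 0.05 and none was lower, with a median of 0.30. The S phase and G2 and M phase medians of 0.07 and 0.08 on the log2 scale compare with 0.30 and 0.18 against myoblasts.

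**Figure D3:**
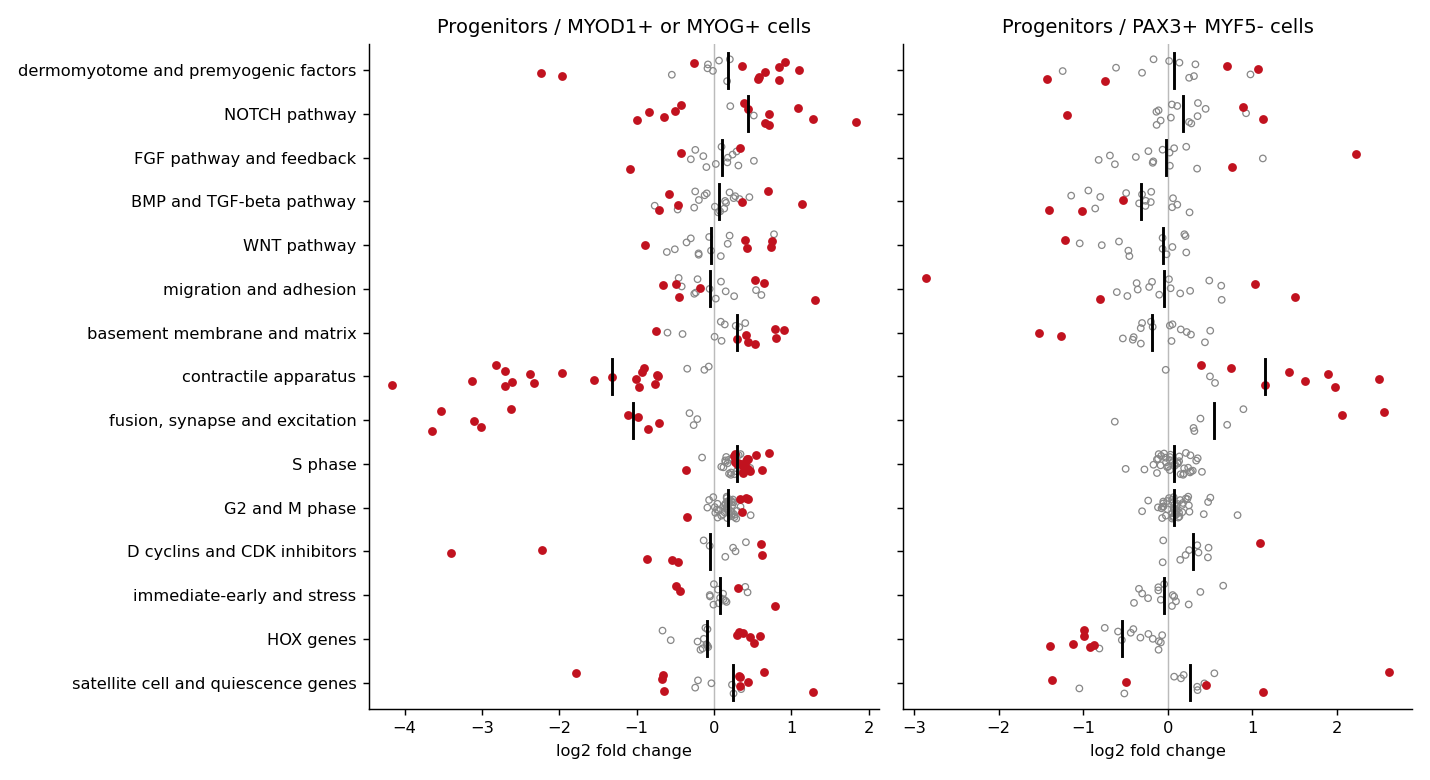
Log2 fold change of each tested gene of 15 lists in MYF5+ progenitors against MYOD1+ or MYOG+ cells (left) and against PAX3+ MYF5- cells (right). Filled points passed an adjusted p of 0.05 (edgeR), open points did not, and black bars are list medians. The contractile list lies at a median of -1.31 on the left and 1.16 on the right, and the S phase medians are 0.30 on the left and 0.07 on the right.

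Between E21 and E28 the MYF5+ progenitors themselves differed. With 2 libraries per stage, 2.04% of 9919 genes passed at an adjusted p under 0.05 (edgeR), 1.16% (115) higher and 0.877% (87) lower at E28. The calls depended on both E21 libraries, since none remained without E21-ZZ (1376 genes at an unadjusted p under 0.05) and 5 without E21-DZ. With the breed as a block 637 genes passed. Stage, tissue and the shift from PAX7-only to MSC-bearing members moved together here and cannot be told apart.

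The genes with the largest rise included receptors and matrix proteins. NGFR, the p75 neurotrophin receptor, was 21.2 and 13.6 CPM at E21 and 123 and 231 CPM at E28 in ZZ and DZ (log2 fold change 3.32 ± 0.33 SE, adjusted p = 0.00224). RXRG, a retinoid X receptor, was 13.1 and 18.1 CPM at E21 and 96.2 and 165 CPM at E28 (2.98 ± 0.31, adjusted p = 0.00239). SPARCL1, a secreted matrix protein, was 6.85 and 9.49 CPM at E21 and 95.2 and 219 CPM at E28 (4.17 ± 0.43, adjusted p = 0.00239). In all 3 genes both E28 libraries were above both E21 libraries, which was a condition for being named. E28-DZ was the highest in each.

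DBX1, a homeobox gene best known from the neural tube, was the gene with the largest fitted rise among those with a symbol and a mean of at least 20 CPM. It rested on 2 and 1 UMIs at E21 against 46 and 308 UMIs at E28, in ZZ and DZ. NFIX, a factor of the switch from embryonic to fetal muscle, had 0 and 1 UMIs at E21 and 18 and 84 at E28. CALCR, the calcitonin receptor of quiescent satellite cells, had none at E21 and 18 and 25 UMIs at E28. All 3 passed the test, and no fold is given because so few UMIs stood at E21.

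Of 18 genes linked to satellite cells, 5 were higher at E28 (VGLL3, PTN, APOE, NFIX and CALCR) and 2 were lower (IGF1 among them). This is 38.9% called, against 2.04% of all genes, with a median log2 fold change of 0.59 against 0.0030. None passed without E21-ZZ or without E21-DZ. VGLL3 was 69.1 and 56.9 CPM at E21 and 223 and 208 CPM at E28 (1.72 ± 0.18, adjusted p = 0.00239). LFNG, a fringe enzyme that adds sugars to NOTCH receptors, was higher by 2.09 ± 0.23, the only one of 16 NOTCH genes to pass. Of 17 FGF genes, FGFR4 was higher by 1.74 ± 0.28, DUSP4 was lower and 15 did not pass. Of 24 BMP and TGF-beta genes, 3 were higher and none was lower, among them FST, the myostatin antagonist, by 1.95 ± 0.23. MSTN (myostatin) itself was 84.7 and 97.6 CPM at E21 and 110 and 41.5 CPM at E28, so the stages overlapped.

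Lower at E28 were neuropeptide NPY, with 124 and 126 CPM at E21 and 21.9 and 21.5 CPM at E28 (log2 fold change -2.59 ± 0.19 SE, adjusted p = 0.00101), and COL25A1, a collagen of muscle that motor axons need (-2.61 ± 0.37). For both genes each E28 library was below each E21 library, which was a condition for being named. MEOX1, DACH1 and MEF2C were lower by -1.15 ± 0.17, -1.99 ± 0.41 and -1.37 ± 0.27, 3 of 19 dermomyotome factors, while EN1 and NFIX were higher. This is 26.3% called, against 2.04% of all genes. TNNT1 and TNNI1 changed by -1.59 ± 0.27 and -1.62 ± 0.26, and 17 of the 20 contractile genes did not pass. SLA-DQB1, a class II histocompatibility gene, was 45.4 and 26.2 CPM at E21 and 1.39 and 0.805 CPM at E28.

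HOXB9, a gene of trunk position, was 67.2 and 23.0 CPM at E21 and 0.695 and 8.85 CPM at E28 (log2 fold change -3.06 ± 0.65 SE, adjusted p = 0.0473). It also differed within E18, at 84.5 CPM in ZZ and 5.69 CPM in DZ. Single libraries of 1 stage thus differed as well, in opposite directions at E18 and E28. HOXB8 was lower at E28 too (-2.37 ± 0.44), and 20 of the 22 HOX genes tested did not pass (9.09% called, against 2.04% of all genes). Whether the pools covered the same somite levels was not tested.

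**Figure D4:**
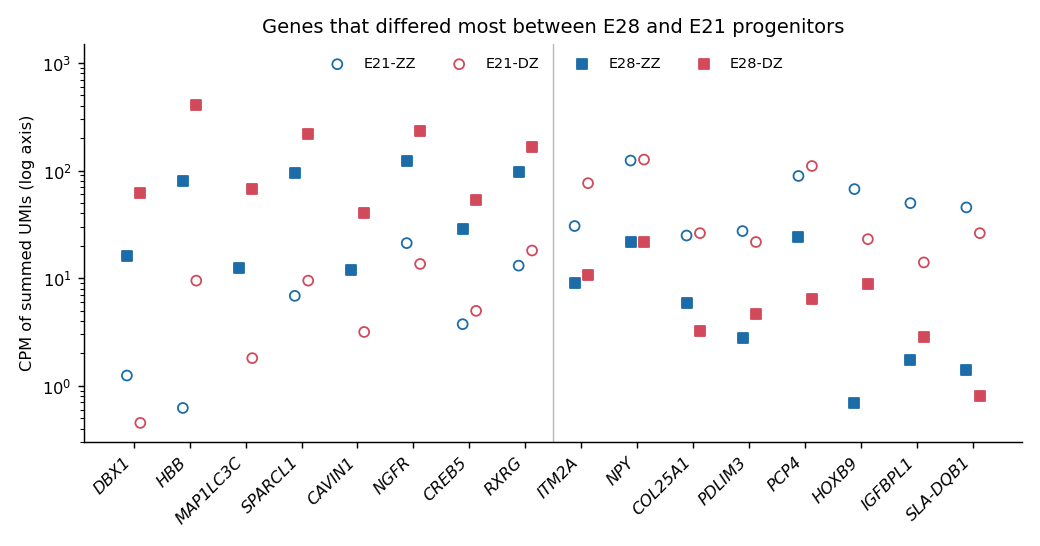
CPM of the summed UMIs (log axis) of the 8 genes with the largest rise and the 8 with the largest fall from E21 to E28 in MYF5+ progenitors. Points are single libraries, open circles E21 and filled squares E28. MAP1LC3C and CAVIN1 were at 0 in E21-ZZ and have no point there. For NPY both E21 libraries sit near 125 CPM and both E28 libraries near 21.7 CPM.

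Markers of other cells moved with stage in the members. Of 5 fibroblast markers tested, 4 were higher at E28 (80% called, against 2.04% of all genes). Among them were LUM (169 and 142 CPM at E21, 456 and 270 CPM at E28) and OGN (2.41 ± 0.20). The neuronal list fell from 1144 and 613 CPM at E21 to 289 and 227 CPM at E28, with STMN2 the largest part (916 and 573, then 279 and 185 CPM, -1.72 ± 0.26), while ELAVL3 was at most 6.85 CPM in any library. The globin and erythroid list summed to 129 and 2753 CPM at E21 and 629 and 464 CPM at E28, and HBB, the adult beta-globin, was higher at E28 (0.622 and 9.49 CPM against 79.2 and 405 CPM). The sclerotome and cartilage list fell from 205 and 203 CPM at E21 to 119 and 104 CPM at E28, and COL2A1, 1 of its 2 genes tested, was lower. Lists of endothelial, macrophage, epithelial, cardiac and neural crest markers were at 0 to 16.3 CPM in the members of every library. With cells bearing a UMI of COL2A1, PECAM1, EPCAM, SOX10 or LUM left out, 82 genes differed between the stages. What part these markers had in the remaining calls was not tested.

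DZ and ZZ members differed in few genes. With 3 libraries of each breed (E18, E21, E28) and the stage as a block, 0.204% of 9333 genes passed at an adjusted p under 0.05 (edgeR), 0.193% (18) higher and 0.0107% (1) lower in DZ. The lower gene was SELENOP, a selenium carrier that was lower in 2 of 3 pairs. Leaving out E18-ZZ, E18-DZ, E21-ZZ, E28-ZZ or E28-DZ gave 110, 111, 41, 68 or 66 genes. DESeq2 called 6, all higher in DZ.

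Immediate-early genes stood out among the 18. Of 17 immediate-early and stress genes tested, 5 were higher in DZ and none was lower (29.4% called, against 0.204% of all genes). The list's median log2 fold change was 0.80 against -0.0021 over all genes, and 12 were higher at an unadjusted p under 0.05. Leaving out E18-ZZ, E18-DZ or E21-ZZ gave 8, leaving out E21-DZ 3, and DESeq2 3. FOSB was 3.52 and 19.9 CPM at E18, 45.4 and 179 CPM at E21, and 58.0 and 183 CPM at E28 in ZZ and DZ (log2 fold change 1.86 ± 0.18 SE, adjusted p = 0.00119). MAFF, which was not on the list, was 0 and 9.95 CPM, 5.60 and 44.3 CPM, and 7.64 and 47.1 CPM (2.83 ± 0.30, adjusted p = 0.00137). DZ was above ZZ in all 3 pairs for both genes, which was a condition for naming MAFF. At E18 this rested on 2 and 14 UMIs of FOSB and 0 and 7 of MAFF in ZZ and DZ.

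KLF4 and NR4A1 were also higher in DZ in 3 of 3 pairs, by 2.20 ± 0.32 and 2.24 ± 0.33. Their E18 pair rested on few UMIs, 0 and 4 of KLF4 and 4 and 8 of NR4A1 in ZZ and DZ. KLF2 rested on E21 (10.6 and 47.9 CPM) and E28 (25.7 and 127 CPM), since both E18 libraries were at 0. ATF3 was higher in DZ at E21 (6.85 and 52.8 CPM) and E28 (8.68 and 90.8 CPM), but not at E18 (10.6 and 5.69 CPM). HES1, a NOTCH effector, was 31.7 and 65.4 CPM, 71.6 and 198 CPM, and 76.4 and 158 CPM at the 3 stages (1.24 ± 0.17, adjusted p = 0.0103). FOS, at 548 and 1649 CPM at E28, did not pass (1.01 ± 0.20, adjusted p = 0.0916).

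The difference at E28 was seen in the other gates too. The 19 measured genes of the immediate-early and stress list summed to 4601 CPM in E28-ZZ members and 7233 CPM in E28-DZ members, to 4214 and 6618 CPM in myoblasts and to 4146 and 9502 CPM in PAX3+ cells. FOSB was 34.3 and 171 CPM in the E28 myoblasts of ZZ and DZ. At E21 the sum was not higher in DZ members (4874 CPM in ZZ and 4410 CPM in DZ). Of all barcodes, 3.05% and 8.58% were over the mitochondrial limit in E21-ZZ and E21-DZ, and 1.83% and 1.05% in E28-ZZ and E28-DZ. HBB was higher in DZ by 2.28 ± 0.29, in 2 of 3 pairs. The part of dissociation and of erythroid RNA in these differences was not tested.

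**Figure D5:**
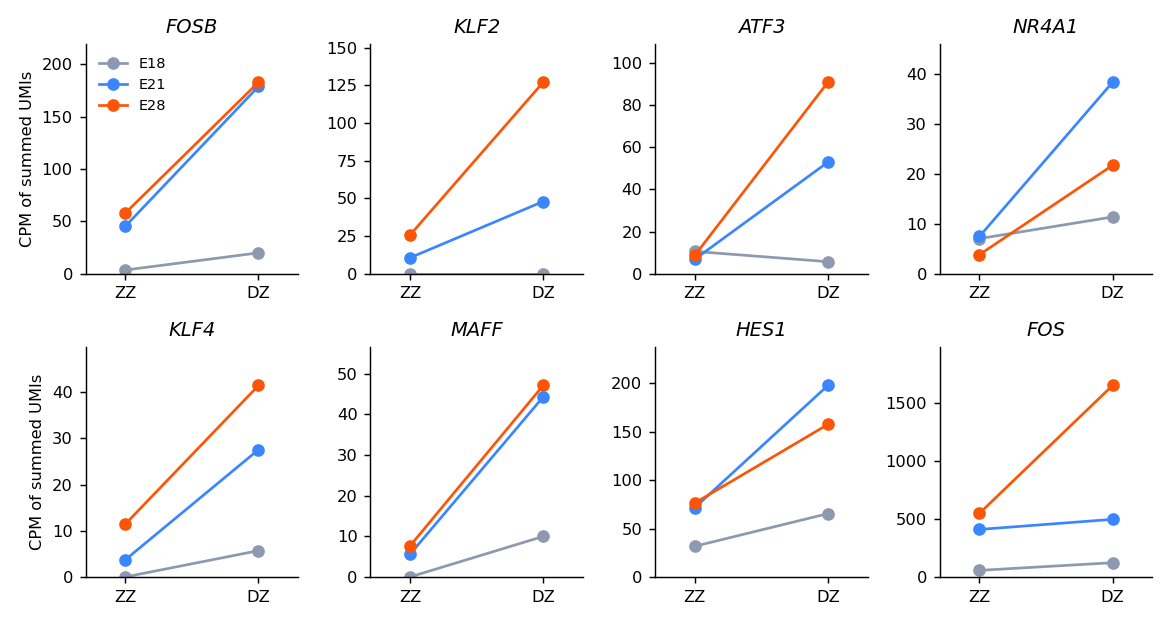
CPM of the summed UMIs of 8 genes in MYF5+ progenitors of ZZ and DZ. Each line joins the ZZ and the DZ library of a stage (E18, E21, E28). FOSB, NR4A1, KLF4, MAFF, HES1 and FOS were higher in DZ at all 3 stages, and FOS did not pass the test (adjusted p = 0.0916).

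Among the members themselves, cells with PAX7 but no MSC were compared with cells with MSC but no PAX7 in the 4 libraries of E21 and E28, which held 26 to 196 cells of the first kind and 49 to 397 of the second. Of 6605 genes, 0.469% passed at an adjusted p under 0.05 (edgeR, library as a block), 0.273% (18) higher and 0.197% (13) lower in PAX7-only cells. The number of 31 fell to 18 without E21-ZZ, to 10 without E21-DZ and to 16 without E28-DZ, and DESeq2 called 5, all higher in MSC-only cells.

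Of 15 dermomyotome genes tested, EN1 and PAX3 were higher in PAX7-only members and 13 did not pass, and of 9 WNT genes 2 were higher and 7 did not pass, where 0.469% of all genes were called. DESeq2 called 0 genes of either list. PAX3 was 113, 92.4, 85.8 and 137 CPM in PAX7-only cells of E21 and E28 (ZZ then DZ of each) and 72.4, 51.5, 50.1 and 38.2 CPM in MSC-only cells (log2 fold change 0.90 ± 0.20 SE, adjusted p = 0.0152). EN1 was 44.5, 29.0, 110 and 165 CPM against 12.6, 0, 61.5 and 52.1 CPM (1.35 ± 0.26, adjusted p = 0.00586). Both genes were higher in PAX7-only cells in 4 of 4 libraries. RSPO3 and TLE3, a Groucho corepressor, were higher by 1.13 ± 0.25 and 1.76 ± 0.37, in 4 of 4 libraries each, and SFRP2 by 1.36 ± 0.28, in 3 of 4. The same direction in all libraries was a condition for naming TLE3.

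MSC-only members carried more MSTN, VIM and IGFBP2. MSTN, the secreted inhibitor of muscle growth, was 107, 194, 117 and 42.1 CPM in MSC-only cells and 57.2, 58.0, 66.2 and 18.3 CPM in PAX7-only cells (log2 fold change -1.27 ± 0.19 SE, adjusted p = 0.000144). VIM (vimentin) was 3258, 2300, 3493 and 4908 CPM against 1975, 1579, 3153 and 3473 CPM (-0.51 ± 0.07, adjusted p = 1.34e-05). Each was higher in MSC-only cells in 4 of 4 libraries, which was a condition for naming VIM. MYF5, which was not tested, was 425, 396, 626 and 968 CPM in MSC-only cells and 523, 433, 625 and 706 CPM in PAX7-only cells, so neither kind was the higher throughout.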

How the data were processed

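The authors made the deposited matrices from 10x Genomics 3' v3 libraries of collagenase-dissociated tissue with Cell Ranger, version 3.1.0 for E16 and 3.0.2 for the other stages per the file headers, on the Sscrofa11 reference with the Ensembl annotation. The deposited values are raw UMI counts, with no normalization, of 21301 genes in 90688 barcodes called as cells. The deposited gene names were completed for 680 genes from a table of gene identifiers, and 5775 genes have no symbol.

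Cells were kept at 200 or more genes, at most 30000 UMIs and at most 10% mitochondrial UMIs, and gated on raw UMIs. Doublets were left in, and an alternative removed the highest Scrublet scores (scanpy 1.11.5), at 0.8% per 1000 barcodes of a library. UMIs were summed per library and gate where it held at least 20 cells, and tested with edgeR 4.0.16 (R 4.3.3; TMM, filterByExpr, glmQLFit, glmQLFTest, Benjamini-Hochberg adjustment, threshold 0.05). DESeq2 1.42.0 was an alternative. SE is the absolute log2 fold change divided by the square root of the F statistic. CPM are of the summed UMIs, without TMM. The tests were run on simulated counts with 200 genes changed and a fixed dispersion. The simulation held no differences between libraries and no selection of cells on counts, so it cannot check the blocks or the gates. Shares have exact (Clopper-Pearson) 95% intervals, the floor of a share of 0 is 3 counts, and shares were compared by an exact permutation test in scipy 1.17.1. Thinning drew 2000 UMIs from each cell without replacement.

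Genes named are those of the rule, PAX3, genes of 26 lists, and in each test the 8 highest and 8 lowest by log2 fold change among those that passed, with a symbol, a mean of at least 20 CPM in the higher group and the same direction in every library or pair. At most 6 genes were named per list and test. SELENOP was named after its values were seen. The members and lists were chosen with earlier results of these data known. Alternatives were the tool, normalization, filter, mitochondrial limit, depth, doublets, MYF5 threshold, other cell types, the block and each library left out.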

Additional observations from a re-analysis of the deposited data

How the results depend on the processing

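No named or listed gene that passed a test changed sign: of 4171 values of 287 such results under the alternatives, 3246 kept their side of the threshold and 925 lost it. Counts of genes that passed moved as follows. Against myoblasts (1340), DESeq2 gave 786 and no replicate block (the library left out of the model) 113. Leaving out a library gave 756 to 1545. Against PAX3+ cells (202), DESeq2 gave 123, no filter on low counts 501, doublets removed 111 and no replicate block 0 (485 at an unadjusted p under 0.05). Cells without markers of other types gave 6 in 2 libraries, and cells thinned to 2000 UMIs 31 in 3 libraries and 1974 genes. Chosen after seeing the data, no E18 libraries gave 393. Leaving out a library gave 62 to 250. Between E28 and E21 (202), no filter gave 693, a mitochondrial limit of 5% 88, cells without other markers 82, and the replicate block of breed 637. Leaving out a library gave 0 to 266. Between DZ and ZZ (19), DESeq2 gave 6, no filter 105, doublets removed 8 and no replicate block of stage 0 (153 unadjusted). A limit of 5% gave 64 and cells without other markers 30, each in the 4 libraries of E21 and E28. Chosen after seeing the data, no E18 libraries gave 113, so these 2 counts are to be read beside 113 rather than 19. Leaving out a library gave 16 to 111. Between PAX7-only and MSC-only members (31), DESeq2 gave 5, doublets removed 20 and no replicate block 0 (223 unadjusted). A limit of 5% gave 12 and thinned cells 4, both in 3 libraries without E21-DZ, whose removal alone gave 10. At least 2 MYF5 UMIs gave 18 in 3 libraries without E28-DZ, whose removal alone gave 16. Leaving out a library gave 10 to 38, and cells without other markers left 1 library, so no test. DESeq2's size factors in edgeR moved no count by over 1.5 times.

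The late-minus-early share kept its direction throughout. Leaving out a library gave 3.08 to 5.16 percentage points, where the smallest possible exact permutation p is 0.0571, and it was 2.39 without E28 and, chosen after seeing the data, 4.08 within Cell Ranger 3.0.2 (exact permutation p = 0.133 each, the smallest these allow). The MYOD1-negative share rose on thinning to 94.7% and 95.3% at E21 and to 82.0% and 79.9% at E28.

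The groups share no replicate number but 1, so the block was the library, the stage or the breed. The E18 members were 59 cells per library (568359 and 703259 UMIs in sum), so 1 UMI there was worth over 1 CPM. Doublets and free RNA were not removed in the values above.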
